A study of Mus musculus with 12 samples.

Results

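The genes described here encode the respiratory chain and the ATP synthase, the machinery of oxidative phosphorylation, and they were followed in macrophages at the borders of the mouse brain. Members were picked by name from the count table. Names beginning with mt-Nd, mt-Co, mt-Cytb or mt-Atp were taken as mitochondrial. Names beginning with Nduf, Uqcr, Atp5 or Cox4 to Cox8 were taken as nuclear, without names that end in -ps and digits. A member also needed at least 10 counts in at least 4 of the 12 libraries. In all, 116 names fitted, and 98 of them passed the count limit, 8 mitochondrial and 90 nuclear, among 13724 genes tested and 56735 gene names in the table. The nuclear members were 40 subunit names of complex I, 8 assembly factors of complex I whose symbols begin with Nduf, 8 names of complex III, 14 of complex IV, 17 of complex V and 3 pseudogene rows. The 18 names under the limit were 5 mitochondrial genes, described below, and 13 nuclear ones. These 13 were Cox4i2, Cox6c2, Cox7b2, Cox8b, Cox8c, Ndufa4l2, Ndufa11b, Ndufb11b, Ndufs6b and the pseudogene rows Atp5c1-ps, Ndufa12-ps, Ndufab1-ps and Ndufs5-ps.

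Bulk RNA sequencing was done on CD206+ cells sorted from brain without the choroid plexuses. All mice were Mrc1CreERT2/CreERT2:R26tdT/tdT. In these mice an inducible Cre recombinase is expressed from the Mrc1 gene, which encodes CD206, and tamoxifen switches on the red reporter tdTomato (tdT) permanently in cells that use that gene. The CSF1R inhibitor BLZ945, which removes macrophages, or its vehicle was given 4 weeks after tamoxifen, BLZ945 at 200 mg/kg for 7 days, and cells were sorted 8 weeks after the end of treatment. There were 3 groups of 4 libraries, named F1, F2, M1 and M2 in each group. The control group (CTL) held tdT+ cells of vehicle-treated mice. The other groups held tdT+ and tdT- cells of mice given BLZ945, and the tdT+ and tdT- libraries with the same label came from the same mouse. No tdT- library of a vehicle-treated mouse was part of the design, so BLZ945 tdT- and control cells differed in reporter state and in treatment. By the labels, all cells were harvested after the same interval. The library names call the control libraries "pre" and the others "Post", a difference that the sources used here do not explain and that falls together with treatment. Tamoxifen was given at 5 to 9 weeks of age.

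The respiratory chain sits in the inner mitochondrial membrane, where complexes I, III and IV pass electrons to oxygen and pump protons, and complex V uses the proton gradient to make ATP. The mitochondrial chromosome encodes a small set of core subunits of complexes I, III, IV and V, which are transcribed as long polycistronic RNAs and cut apart into single messages. All remaining subunits are encoded in the nucleus and imported, so each of these complexes is assembled from the products of 2 genomes. Microglia and border macrophages use oxidative phosphorylation together with glycolysis, and the balance is known to move with activation.

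Counts of the mitochondrial chromosome's genes have to be read beside their sequence. Reads that map to several places were not counted, and the nuclear genome carries old copies of mitochondrial DNA. In the annotated GRCm38 transcripts, every 50-base window of mt-Co2 (a catalytic subunit of complex IV) also occurred in the nuclear copy Gm28661. Of mt-Atp6 (complex V), 99.5% of windows recurred, chiefly in Gm10925, of mt-Co3 (complex IV) 99.9%, chiefly in Gm28437, of mt-Nd4l (complex I) 98.8%, chiefly in Gm10222, and of mt-Nd3 (complex I) 98.0%, chiefly in Gm28438. Over all 12 libraries the table held 21 counts for mt-Co2, 30 for mt-Atp6, 38 for mt-Co3, 0 for mt-Nd4l and 726 for mt-Nd3. By contrast, mt-Nd1, mt-Nd6 (complex I) and mt-Cytb (cytochrome b of complex III) shared no window and held 255968, 48472 and 333286 counts. Shared windows made up 62.2% of mt-Nd4, 51.1% of mt-Co1 (the catalytic core of complex IV), 8.19% of mt-Nd2 and 7.61% of mt-Nd5. The small complex V gene mt-Atp8 shared no window with another transcript and yet held 1 count in all. Only transcripts were searched, so copies outside annotated transcripts could not appear here. The counts of the 5 genes under the limit were not read as expression, and so no mitochondrial gene of complex V could be followed. The gene mt-Nd3, with 98.0% of its windows shared, passed the limit and stayed a member by the rule. Its values rest on few countable windows and are uncertain, also where it enters counts and medians over the members below.

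The first of the following sequences is the start of mt-Co2 (GRCm38 chrM:7013-7072, plus strand). It is shown because the same 60 bases stand in the nuclear copy Gm28661 (chr1:24615506-24615565, minus strand). The other is the stretch of mt-Co1 (GRCm38 chrM:6364-6423, plus strand) where the part shared with the nuclear copy Gm29216 begins, at base 1067 of its 1545. Capitals mark the bases that the copy also holds. Small letters lie outside this copy only, and other copies may hold them.
mt-Co2: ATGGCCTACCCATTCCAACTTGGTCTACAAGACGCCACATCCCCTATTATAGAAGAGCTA
mt-Co1: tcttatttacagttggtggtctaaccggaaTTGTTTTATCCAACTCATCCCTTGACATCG

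**Figure D1:**
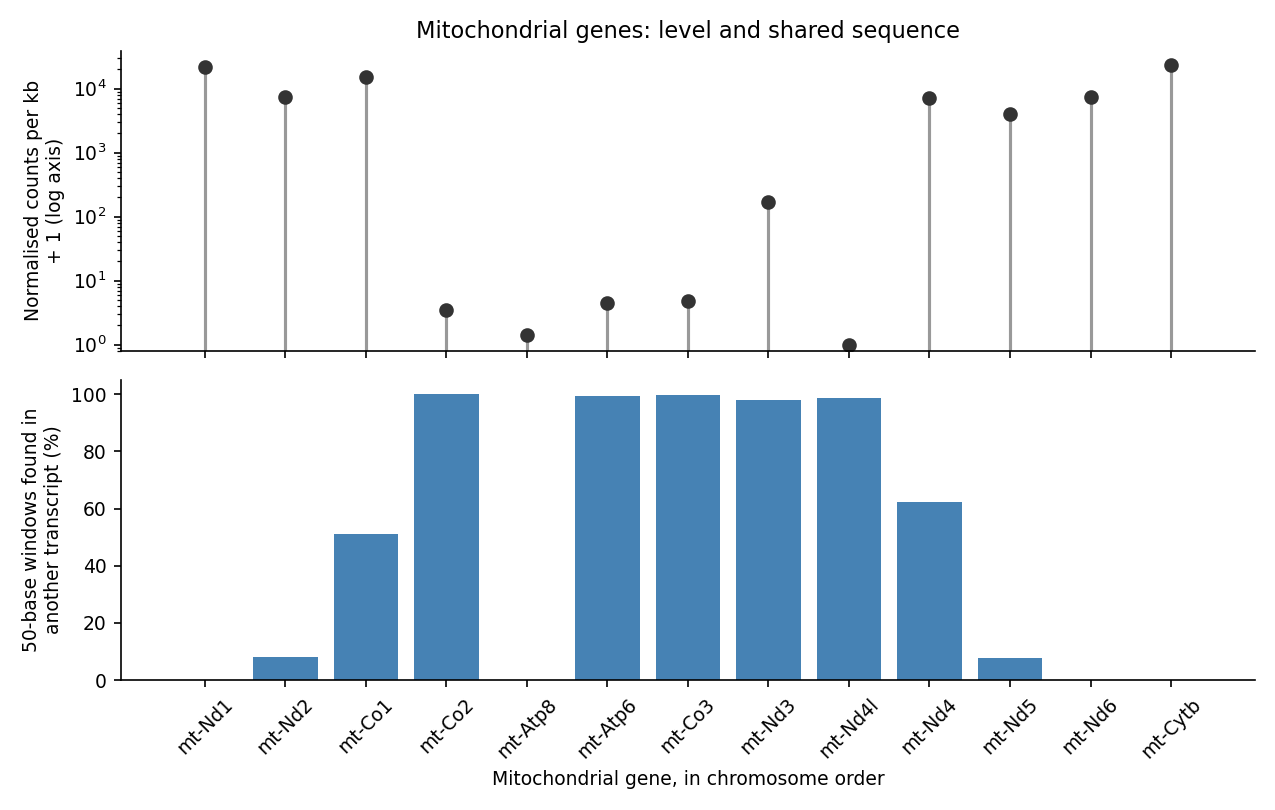
The 13 protein-coding genes of the mitochondrial chromosome in their order on it. Upper panel, mean normalised counts per kilobase over the 12 libraries plus 1 on a log axis; lower panel, percent of 50-base windows that also occur in another annotated transcript. The genes with nearly all windows shared, and mt-Atp8, lie at the bottom of the upper panel.

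The libraries held 19969308 to 23395058 counts, which is ample for these genes, and their precision was set by the spread between mice. A floor of 3 counts in a library corresponded to 2.60 to 3.16 normalised counts, and it covers counting error only, since PCR reads without molecular identifiers are not independent molecules. The tdTomato entry of the table was at 0 in every library and could not check the tdT labels. All 8 markers of border macrophages and all 6 of microglia were detected in each group. The summed microglia markers, in normalised counts, ranged from 46907 to 76085 in control libraries, from 80456 to 104635 in BLZ945 tdT+ and from 212440 to 457232 in BLZ945 tdT- libraries. Library F2 of the BLZ945 tdT- group stood apart, with 378396 summed counts of 5 neutrophil markers against at most 39.6 in any other library. It held 36171 of red cell markers against at most 15807 in any other library, and 18853 of monocyte markers against at most 6650.0 (Vcan at 0 throughout). Counts of called members and some other results on that group are therefore also given without it. All other values include it. Of 10 immediate early genes, which respond to cell handling, 4 were higher in BLZ945 tdT+ than in control cells (Fos by 2.43 and Jun by 1.64 on the log2 scale) and 5 were higher in BLZ945 tdT- cells by DESeq2. Of all genes, 0.481% and 3.27% were called as higher in these comparisons. By edgeR 4 and 5 of the 10 were called. The part of these markers in the results below was not tested.

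Per kilobase of a gene's merged exons, the 6 highest members were all mitochondrial. The mean over the 12 libraries was 23328 normalised counts per kilobase for mt-Cytb, 21405 for mt-Nd1, 15314 for mt-Co1, 7459 for mt-Nd6, 7411 for mt-Nd2 and 7235 for mt-Nd4. The highest nuclear members followed close behind, at 6745 for Cox6a1, 6666 for Cox6b1, 6404 for Cox8a and 5283 for Cox4i1 (all of complex IV). The levels of mt-Nd5, at 4009 and 14th by this measure, and of mt-Nd3, at 167 and 84th, were lower. The genes differ in their share of windows that can be counted, so these ranks are not ranks of transcript number. The genes mt-Nd5 (chrM:11742-13565, plus strand) and mt-Nd6 (chrM:13552-14070, minus strand; GRCm39) overlap at their ends and strand was not used, so RNA of the strand opposite mt-Nd6 counts towards it.

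The first comparison asked how tdT+ macrophages that were present 8 weeks after BLZ945 differed from control tdT+ cells. Of the chromosome's genes mt-Nd1, mt-Nd2 and mt-Co1 fell, and the other 5 did not pass the test. In the control libraries F1, F2, M1 and M2, mt-Nd1 stood at 25411, 20825, 27336 and 30876 normalised counts, and in the BLZ945 tdT+ libraries at 19469, 18004, 16758 and 17597. The lowest control library lay above the highest BLZ945 tdT+ library, and mt-Nd1 fell by 31.2% (log2 change -0.54 ± 0.14 SE, adjusted p = 0.0125, DESeq2 with Benjamini-Hochberg adjustment over all genes, as for every adjusted p below unless edgeR is named).

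The catalytic complex IV gene mt-Co1 read 33447, 25716, 32421 and 40578 in control and 21424, 18801, 23884 and 22055 in BLZ945 tdT+ libraries. These groups also lay apart, and mt-Co1 fell by 34.8% (log2 -0.62 ± 0.16, adjusted p = 0.0125). For mt-Nd2, a proton-pumping subunit of complex I, the values were 10987, 9210.3, 10259 and 13838 in control and 7499, 6141, 6269.5 and 7496 in BLZ945 tdT+ libraries, again without overlap. It fell by 38.1% (log2 -0.69 ± 0.19, adjusted p = 0.0298).

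Among the members that did not pass, the complex III gene mt-Cytb stood at 38204, 27728, 33059 and 43263 in control and at 24535, 24558, 23027 and 25882 in BLZ945 tdT+ libraries, with no overlap (log2 -0.54 ± 0.16, adjusted p = 0.0705). The complex I gene mt-Nd5 stood at 10044, 8509, 9143 and 11502 in control and at 8066, 7073, 7716 and 7722 in BLZ945 tdT+ libraries, also without overlap (log2 -0.36, adjusted p = 0.72). For mt-Nd4, at 13769, 10695, 13004 and 15683 in control and 10484, 8789, 8753 and 11118 in BLZ945 tdT+ libraries, the highest BLZ945 tdT+ library reached into the control range (log2 -0.44, adjusted p = 0.42). The values of mt-Nd6, 4932, 3927, 5093 and 6361 in control and 4091, 3513, 3299.8 and 3871 in BLZ945 tdT+ libraries, overlapped as well (log2 -0.46, adjusted p = 0.703). The low mt-Nd3 read 126, 46.5, 57.1 and 110.0 in control and 58, 33.2, 79 and 66.1 in BLZ945 tdT+ libraries, and its groups overlapped throughout (log2 -0.53, adjusted p = 1.0).

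Of the 8 mitochondrial members, 3 fell and none rose, 5 did not overlap between the groups, and all 8 log2 changes were negative, with a median of -0.53 and a range from -0.69 to -0.36. Over all genes tested, 0.955% passed the test, 0.474% as lower and 0.481% as higher, 3.14% lay wholly below and 3.58% wholly above the control libraries, and the median log2 change was 0.03. The count of calls was not firm: edgeR's quasi-likelihood test called 0 of the 8 (5 at an unadjusted p under 0.05) and 0.0656% of all genes, DESeq2 called 0 without control library M2 and 4 without control library F2, and 1 without any of control F1, control M1 or tdT+ F2, M1 or M2. The median over the 8 stayed between -0.64 and -0.41 whichever control or tdT+ library was left out. The 8 genes share a chromosome and long transcripts, so here and below they are not independent of each other. In bulk RNA, fewer cells of a type and less of this RNA per cell cannot be told apart.

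**Figure D2:**
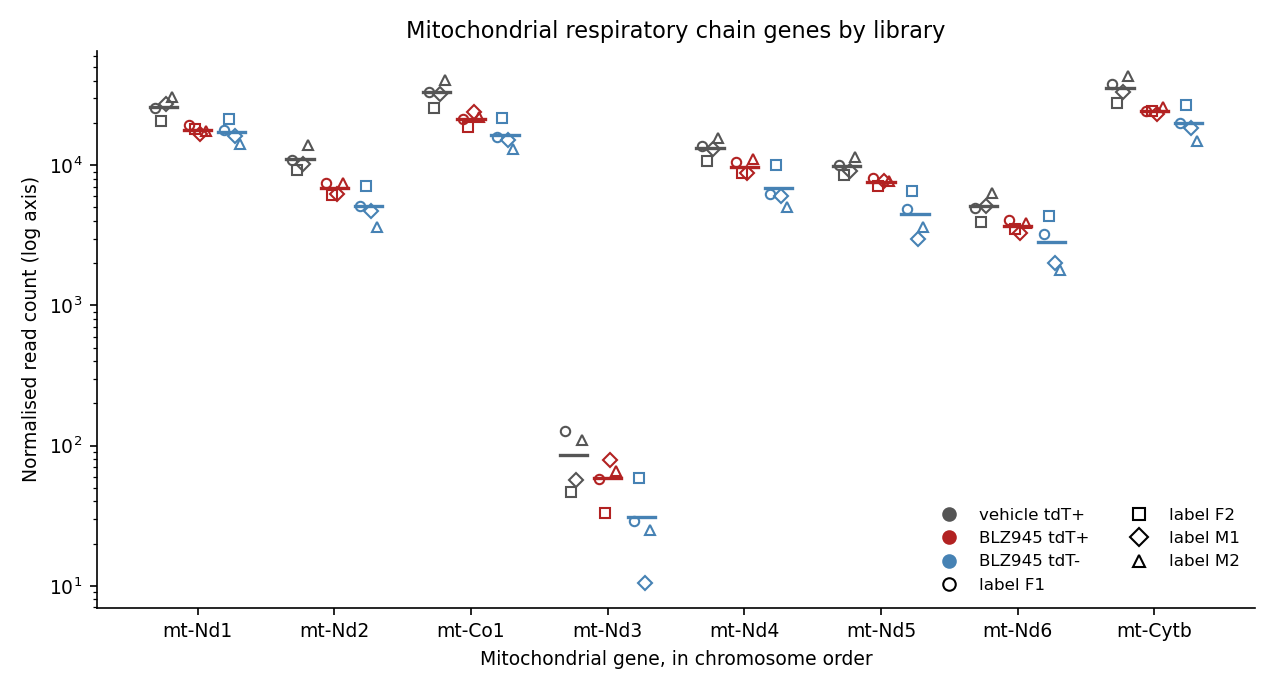
Normalised counts on a log axis of the 8 mitochondrial members in each library, in control tdT+, BLZ945 tdT+ and BLZ945 tdT- groups of 4 libraries, marked by label. For mt-Nd2, mt-Co1, mt-Nd5 and mt-Cytb the control libraries lie above all others, and library F2 is the highest of the BLZ945 tdT- libraries for each gene.

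Of the 90 nuclear members, 3 also fell in BLZ945 tdT+ cells and none rose, against 0.474% of all genes called as lower and 0.481% as higher. They were 1 of the 8 names of complex III and 2 of the 14 of complex IV. Cox6c, a small subunit of complex IV (chr15:35926032-35938392, minus strand, GRCm39), stood at 3929.9, 3587, 3652 and 4401 in control and at 2491, 2854, 2323 and 2772 in BLZ945 tdT+ libraries. All tdT+ values lay below all control values, and Cox6c fell by 32.9% (log2 -0.58 ± 0.13, adjusted p = 0.00214).

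Cox6b1, the subunit of complex IV that faces the intermembrane space (chr7:30316286-30325576, minus strand), read 5956, 4664, 5372 and 5871 in control and 4261, 4285, 3598 and 4209 in BLZ945 tdT+ libraries, without overlap (log2 -0.42 ± 0.11, adjusted p = 0.0153). Uqcr10, a small subunit of complex III (chr11:4651973-4654342, minus strand), read 2268, 2127, 2058 and 2175 in control and 1505, 1515, 1645 and 1574 in BLZ945 tdT+ libraries (log2 -0.47 ± 0.13, adjusted p = 0.0251). Here too the groups stood clearly apart. By edgeR 0 of the 90 were called in this comparison, with 30 at an unadjusted p under 0.05, against 6.95% of all genes.

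Across the nuclear members the changes were small and leaned to lower values. Of the 90, 72 had a negative log2 change, against 47.3% of all genes, with a median of -0.25, and 22 lay wholly below the control libraries, against 3.14% of all genes. Without single libraries DESeq2 called between 1 nuclear member (without control F1, M1 or M2 or tdT+ M1) and 8 (without control F2). Medians by complex were -0.40 for complex IV (12 of 14 negative), -0.27 for complex I (35 of 40), -0.26 for complex III, -0.18 for complex V (14 of 17) and 0.11 for the assembly factors of complex I, which build the complex and are no part of it.

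Short genes as a whole had lower values in the BLZ945 tdT+ libraries, and many respiratory chain genes are short. Length here is that of a gene's merged exons, not of a single transcript. Among other genes, those up to 1000 bases had a median log2 change of -0.20, those up to 2000 bases -0.07, those up to 4000 bases 0.02 and longer ones 0.09. The nuclear members in the same classes had medians of -0.42 (25 genes), -0.29 (34 genes), -0.09 (21 genes) and -0.10 (10 genes), and their difference from the other genes of the class was -0.21, -0.22, -0.11 and -0.19. How far length carried the change of a single member was not tested.

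**Figure D3:**
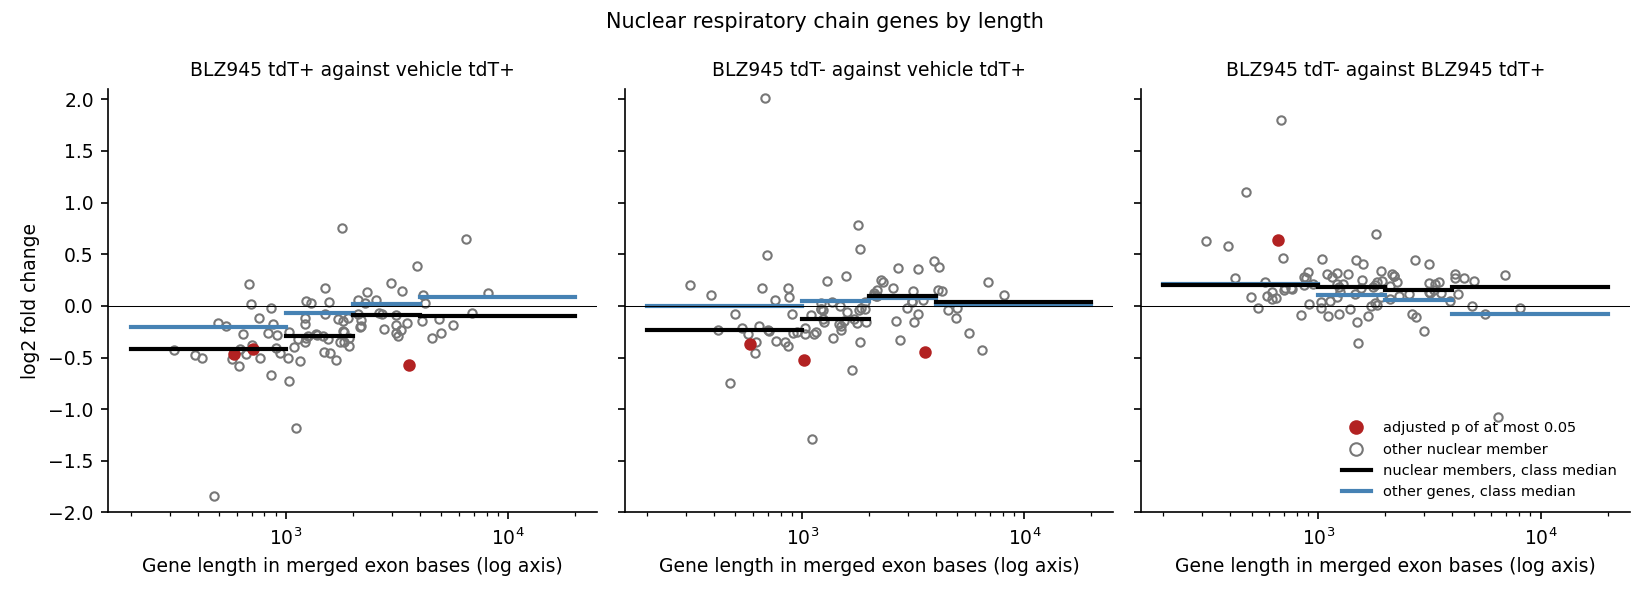
Log2 change of the 90 nuclear members against gene length in merged exon bases on a log axis, in the 3 comparisons. Black lines are the medians of the nuclear members in 4 length classes and blue lines those of all other genes; in BLZ945 tdT+ against control the black lines lie below the blue ones in every class.

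The second comparison set BLZ945 tdT- cells, whose libraries held the highest microglia marker sums given above, against control tdT+ cells. Here 7 of the 8 mitochondrial members fell, against 6.76% of all genes called, 3.49% as lower and 3.27% as higher. By edgeR 6 of the 8 were called, against 3.25% of all genes. The 4 BLZ945 tdT- libraries F1, F2, M1 and M2 held 15827, 21563, 15125 and 13072 normalised counts of mt-Co1, all below the control range given above. It fell by 50.4% (log2 -1.01 ± 0.16, adjusted p = 1.42e-08). For mt-Nd2 the same libraries held 5127, 7123, 4746 and 3614, again wholly below control, and it fell by 53.5% (log2 -1.10 ± 0.19, adjusted p = 4.11e-07).

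The values of mt-Nd5 were 4856, 6528, 2988 and 3605, and it fell by 54.1% (log2 -1.12 ± 0.20, adjusted p = 1.24e-06). The values of mt-Nd4 were 6259, 9994, 6026 and 5063, and it fell by 48.6% (log2 -0.96 ± 0.19, adjusted p = 2.44e-05). Cytochrome b, mt-Cytb, stood at 19912, 26796, 18404 and 14875 and fell by 43.8% (log2 -0.83 ± 0.16, adjusted p = 1.72e-05). None of these 3 overlapped with the control group, and in each of them F2 was the library closest to it.

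In mt-Nd1, at 17722, 21489.5, 16199 and 14129, library F2 reached past the lowest control library, and the gene fell (log2 -0.59 ± 0.14, adjusted p = 7.26e-04). In mt-Nd6, at 3245, 4340.3, 1999 and 1782, F2 likewise overlapped with control (log2 -0.84 ± 0.25, adjusted p = 0.0174 by DESeq2 and 0.0848 by edgeR). The low mt-Nd3, at 29.2, 58.4, 10.5 and 24.9, did not pass (log2 -1.46 ± 0.72, adjusted p = 0.278). Over the 8 the median log2 change was -0.98, and 5 lay wholly below control, against 4.87% of all genes below and 4.82% above. Without library F2 of the tdT- group the median was -1.19 and again 7 were called.

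The nuclear members did not follow by the same amount. Their median log2 change was -0.05, with 55 of 90 negative against 47.8% of all genes, and 3 fell and none rose by DESeq2 while edgeR called 2. That is near the 3.49% of all genes called as lower and the 3.25% called by edgeR, and at an unadjusted p under 0.05 there were 12 members, 11 of them lower, where 16.2% of all genes were, 7.99% as lower. Cox6c, at 2767, 3303, 2575 and 2763, lay below all control libraries (log2 -0.45 ± 0.13, adjusted p = 0.0122). Ndufa3, an accessory subunit of complex I (chr7:3620372-3623326, plus strand), read 3419.6, 2528, 2981 and 2652 in control and 1969, 2213, 2006 and 1859.8 in BLZ945 tdT- libraries, without overlap (log2 -0.52 ± 0.15, adjusted p = 0.00858). In BLZ945 tdT+ libraries it read 1943, 2264, 2209 and 1757, which did not pass against control (log2 -0.50, adjusted p = 0.0577). Uqcr10, at 1658, 1942, 1484 and 1583, also lay wholly below control (log2 -0.37 ± 0.13, adjusted p = 0.0453 by DESeq2 and 0.109 by edgeR), and Cox6b1, at 4547, 4732, 4453 and 4688, did not pass (log2 -0.25, adjusted p = 0.187). By length, the nuclear members had medians of -0.23 up to 1000 bases and -0.13 up to 2000 bases, and of 0.10 up to 4000 bases and 0.04 above, where other genes had -0.01, 0.05, 0.08 and 0.01. The 3 calls became 6 without library F2 of the tdT- group and 1 without control library M2.

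Set beside the nuclear subunits of the same complex, the mitochondrial genes of complexes I, III and IV had lower log2 changes on the median against control. In complex IV, mt-Co1 changed by -0.62 in tdT+ and -1.01 in tdT- cells against control, where the 14 nuclear names had medians of -0.40 and -0.22. In complex III, mt-Cytb stood at -0.54 and -0.83, where the 8 nuclear names had medians of -0.26 and 0.01. In complex I, the 6 mitochondrial genes had medians of -0.49 and -1.03, where the 40 nuclear names had -0.27 and -0.06. Of those 40, 8 were below the mitochondrial median in tdT+ cells and 0 in tdT- cells. In both comparisons the same 4 control libraries were used, so they are not independent. The medians by complex do not take account of length, and the mitochondrial members were 348 to 1824 bases long. Nuclear members up to 1000 and up to 2000 bases had medians of -0.42 and -0.29 in tdT+ cells against control. In tdT- cells against control these were -0.23 and -0.13.

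**Figure D4:**
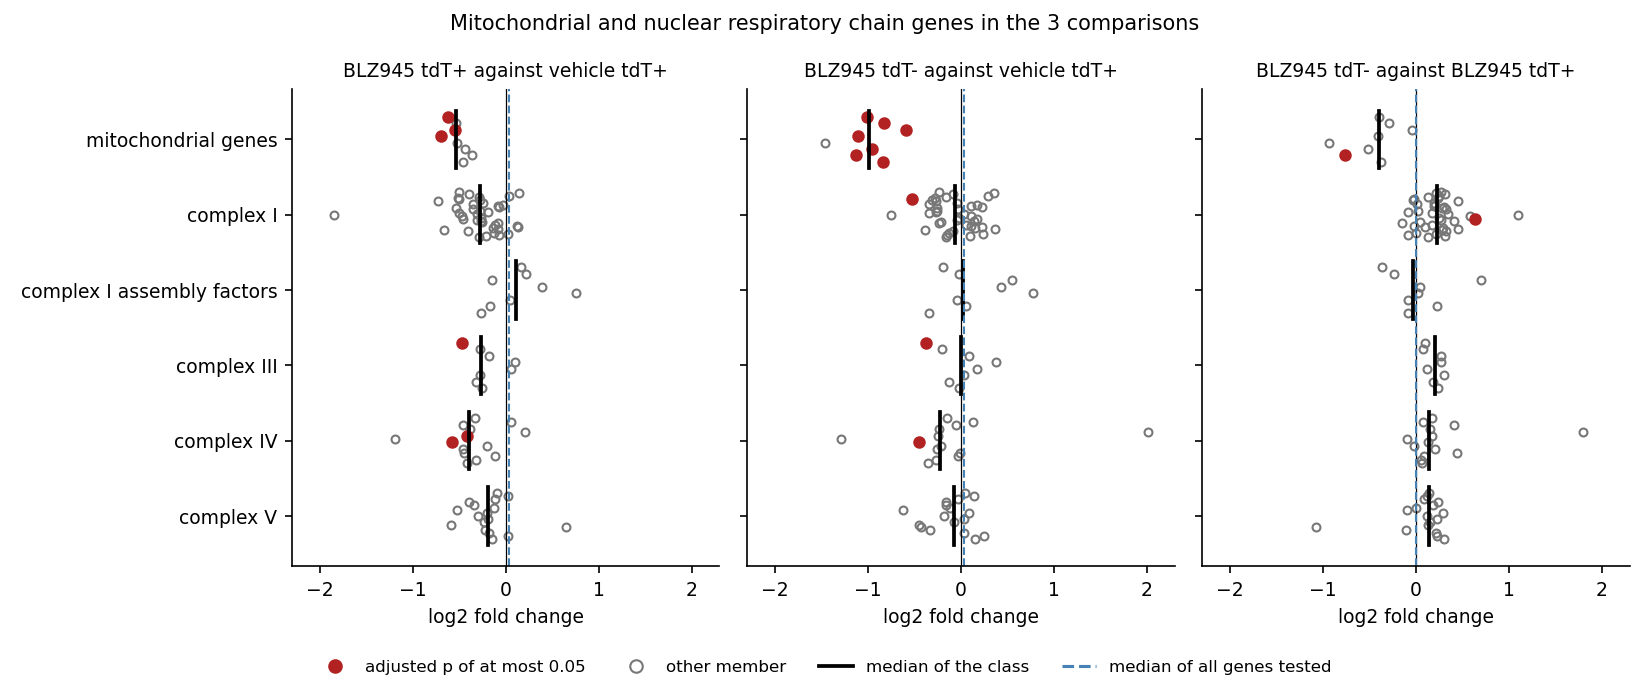
Log2 change of each member in the 3 comparisons, by class. Filled red points passed the test at an adjusted p of 0.05, bars are class medians and the dashed blue line is the median of all genes tested; in BLZ945 tdT- against control the mitochondrial median lies below that of every nuclear class.

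The third comparison set tdT- against tdT+ cells of the same BLZ945-treated mice. Unless a block is named, its values come from the test with group as the only term, which does not use the mouse. Here the mitochondrial and the nuclear members went opposite ways on the median. All 8 mitochondrial log2 changes were negative, with a median of -0.40, while 74 of the 90 nuclear ones were positive, with a median of 0.18, where 49.7% of all genes were negative and their median was 0.00. Of the members, mt-Nd5 fell, with all 4 tdT- libraries below the tdT+ ones, as in 4.79% of all genes (log2 -0.77 ± 0.20, adjusted p = 0.00369, 0.00451 with the mouse as a replicate block, and 0.0534 by edgeR). That was 1 of 8, against 6.32% of all genes called and 3.48% called as lower. The next, mt-Nd4, stood at log2 -0.52 (adjusted p = 0.0789), and mt-Nd1 at -0.05 (adjusted p = 0.96, log2 0.04 without tdT- library M2). By edgeR 0 of the 8 were called, with 4 at an unadjusted p under 0.05, against 2.75% of all genes called.

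In 3 of the 4 mice all 8 mitochondrial genes were lower in tdT- than in tdT+ cells. The median log2 difference within the mouse was -0.49 in F1, -0.60 in M1 and -1.08 in M2. In F2, whose tdT- library stood apart, the median was 0.21 and mt-Nd5 alone was lower, with a log2 difference of -0.12. Without that tdT- library DESeq2 called 6 of the 8 as lower, with log2 changes of -1.01 for mt-Nd5, -0.76 for mt-Nd4, -0.66 for mt-Nd6, -0.61 for mt-Nd2, -0.56 for mt-Co1 and -0.47 for mt-Cytb. So 1 library decided the count here, the one with the neutrophil marker sum given above. The part of those markers was not tested.

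Among nuclear members, Ndufb6, an accessory subunit of complex I (chr4:40270591-40279421, minus strand), was the one that passed between tdT- and tdT+ cells, against 2.85% of all genes called as higher. It read 525, 392, 557 and 605 in tdT+ and 726, 806, 825 and 877 in tdT- libraries, and 659, 843, 647 and 720.2 in control libraries. All tdT- values lay above all tdT+ ones, as in 4.56% of all genes and in 6 of the 90 nuclear members. It rose in tdT- cells (log2 0.64 ± 0.21, adjusted p = 0.0391), a call that was lost with the mouse as a replicate block (adjusted p = 0.177 by DESeq2) and by edgeR (adjusted p = 0.162, with 0 nuclear members called and 6 at an unadjusted p under 0.05). With single libraries left out, DESeq2 called 0 (without tdT+ F1 or M1 or tdT- M1 or M2) to 2 (without tdT- F2) nuclear members. The medians were 0.22 in complex I, 0.21 in complex III with 8 of 8 positive, 0.14 in complex IV, 0.14 in complex V and -0.03 for the assembly factors of complex I. Among other genes the median was 0.21 up to 1000 bases, 0.11 up to 2000 bases, 0.06 up to 4000 bases and -0.08 above. Nuclear members had 0.20, 0.18, 0.15 and 0.18 in these classes, so they were near other genes of their length in the shortest class and above them in the longest.

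The mitochondrial and nuclear sets were also compared within each library. Of all counts, the 8 mitochondrial members took 0.664% ± 0.119 (SD, n = 4) in control, 0.443% ± 0.0230 in BLZ945 tdT+ and 0.345% ± 0.0952 in BLZ945 tdT- libraries. The 90 nuclear members took 0.981% ± 0.0677, 0.819% ± 0.0316 and 0.895% ± 0.0513. Without library F2 the tdT- shares were 0.301% ± 0.0433 for the mitochondrial and 0.872% ± 0.0266 for the nuclear members (SD, n = 3). On the mean, the nuclear share was lowest in tdT+ cells and the mitochondrial share in tdT- cells.

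Per 100 counts of nuclear members there were 65.4, 59.1, 66.5 and 78.5 mitochondrial counts in the control libraries F1, F2, M1 and M2. The BLZ945 tdT+ libraries had 54.7, 51.8, 55.5 and 54.1, and the BLZ945 tdT- libraries had 40.5, 49.5, 33.1 and 30.0. No library of any group fell within the range of another group, and the order was control, then tdT+, then tdT-. Group means were 67.4 ± 8.09, 54.0 ± 1.59 and 38.3 ± 8.69 (SD, n = 4), and the tdT- mean was 34.5 ± 5.43 (n = 3) without library F2. The spread between mice was smallest in tdT+ cells. This ratio uses the same counts as the gene-wise tests above and was therefore not tested again.

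**Figure D5:**
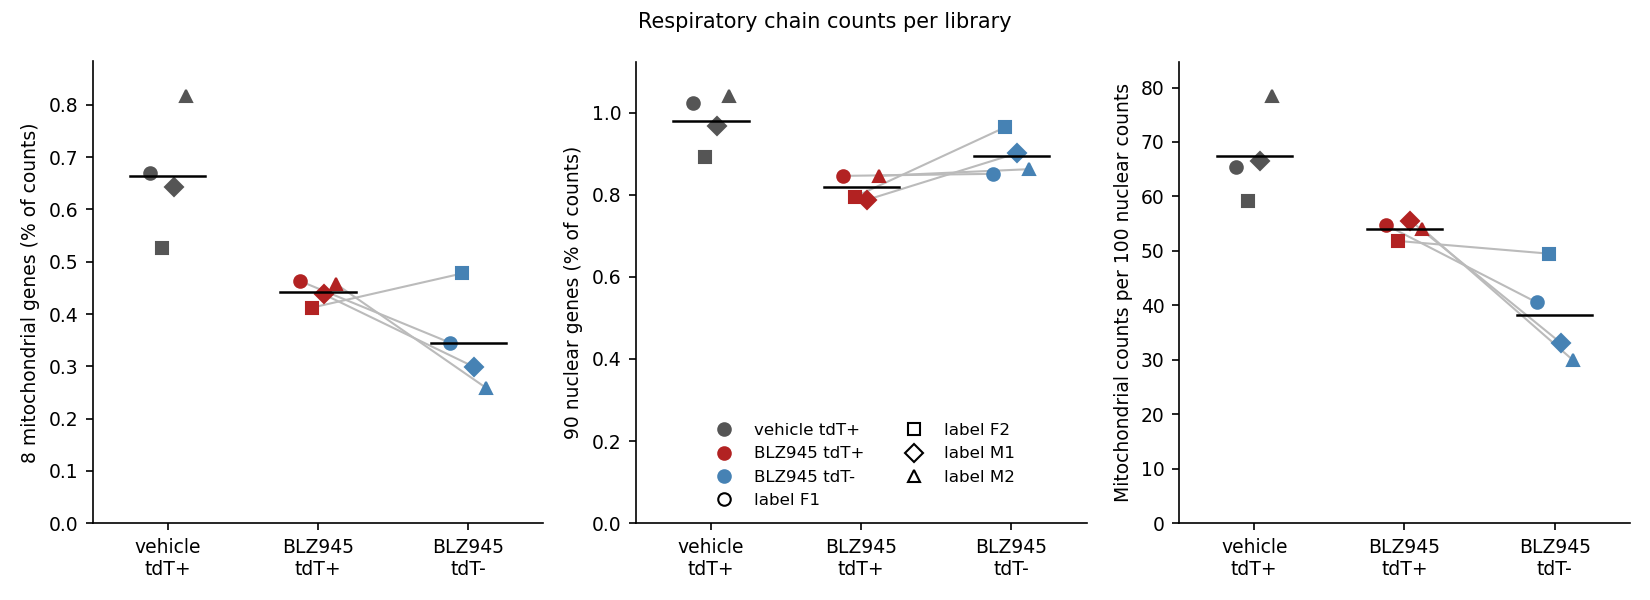
Percent of a library's counts in the 8 mitochondrial members, in the 90 nuclear members, and mitochondrial counts per 100 nuclear counts, for each library. Grey lines join tdT+ and tdT- libraries of the same mouse; the ratio falls along each line, from 51.8 to 49.5 in F2 and by more in the other mice.

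The changes were also compared between libraries labelled F and M. For tdT- against control cells, the M minus F difference of the log2 change had a median of -0.80 over the 8 mitochondrial members, and 7 of the 8 had an unadjusted p under 0.05 by edgeR's interaction test, where 8.04% of all genes did. No gene of the table passed after adjustment, and the lowest adjusted p among the 8 was 0.383. The 8 mitochondrial members are not independent of each other, so their low p-values are not separate results. Of the 90 nuclear members 2 had an unadjusted p under 0.05. Library F2 of the tdT- group is 1 of the 2 libraries on the F side, so label and library cannot be told apart.

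A panel of 14 well-studied nuclear subunits, among them holders of redox centres of complex I, the Rieske protein and the catalytic head of complex V, held Ndufv1, Ndufs1, Ndufs3, Ndufs7 and Ndufs8 of complex I, Uqcrfs1, Uqcrc1 and Uqcrc2 of complex III, Cox4i1, Cox5a and Cox5b of complex IV, and Atp5a1, Atp5b and Atp5c1 of complex V. DESeq2 called 0 of 14 in each comparison, with 2, 1 and 3 at an unadjusted p under 0.05 in tdT+ against control, tdT- against control and tdT- against tdT+, and edgeR called 0 with 2, 1 and 1. Of all genes, 0.955%, 6.76% and 6.32% were called and 8.08%, 16.2% and 15.8% had an unadjusted p under 0.05 by DESeq2, so a count of 0 among 14 is near the background. Their median log2 changes were -0.08, 0.08 and 0.13.

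Within that panel Cox5b, which binds zinc in complex IV, read 2219.6, 1743, 1723 and 1747 in control and 1249, 1339, 1242 and 1570.0 in tdT+ libraries, where the tdT+ group lay below (log2 -0.46, adjusted p = 0.257). Cox4i1, the largest nuclear subunit of complex IV, had log2 -0.33 (adjusted p = 0.157) in the same comparison. On the other side Uqcrc1, a core protein of complex III, read 4628, 3689, 4048 and 3798 in control and 4404, 5093, 6456 and 5063 in tdT- libraries (log2 0.38, adjusted p = 0.0812). None of the 3 passed the test. The Rieske protein gene Uqcrfs1, with 1873 ± 397 in control, 1552 ± 180.1 in tdT+ and 1919 ± 212 in tdT- libraries (mean ± SD, n = 4), and the ATP synthase beta subunit Atp5b, with 13349 ± 777, 13598 ± 951 and 14768 ± 1003, show the scale of the spread between mice.

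Complex V was followed through its nuclear genes alone. DESeq2 and edgeR called 0 of the 17 in each comparison. At an unadjusted p under 0.05 by DESeq2 there were 4, 2 and 1, where 8.08%, 16.2% and 15.8% of all genes were. In tdT+ against control cells the 4 were all lower, a larger share than over all genes. In that comparison 4 of the 17 also lay wholly below the control libraries, against 3.14% of all genes. The alpha subunit gene Atp5a1, which together with beta forms the catalytic head, read 14158, 13616, 13238 and 13826 in control, 13194, 13793, 11864 and 12661 in tdT+ and 14200.3, 13968, 14392 and 14049 in tdT- libraries. The log2 change of Atp5a1 was -0.09 ± 0.06 in tdT+ and 0.05 in tdT- cells against control (adjusted p = 0.9 and 0.871). All 4 tdT- libraries lay above all tdT+ libraries, yet the gene did not pass that comparison either (log2 0.14, adjusted p = 0.234). Among the 8 assembly factors of complex I, which ranged from 84.3 ± 39.9 for Ndufaf5 to 744 ± 143 for Ndufaf7 in control libraries (mean ± SD, n = 4), 0 were called by DESeq2 or edgeR, and 0 had an unadjusted p under 0.05 in any comparison.

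Tissue variants of complex IV subunits were low. The muscle form Cox6a2 read 14, 14.9, 26.8 and 4.51 in control, 63.5, 0, 6.15 and 0 in tdT+ and 73, 73.4, 96 and 0 in tdT- libraries, and the testis form Cox6b2 had log2 -1.19 and -1.29 against control (adjusted p = 0.688 and 0.284). The hypoxia-linked forms Cox4i2 and Ndufa4l2 and the muscle form Cox8b stayed under the count limit. The common forms were far higher. Cox6a1 stood at 6018, 4504, 5469 and 5689 in control and 4272, 3814, 4062 and 4509.7 in tdT+ libraries (log2 -0.38, adjusted p = 0.0993). Ndufa4, a subunit now assigned to complex IV, had log2 -0.31 in tdT- cells against control (adjusted p = 0.0986). By its symbol it was counted among the complex I names in the medians by complex above. Cox7a2l, which joins complexes into supercomplexes, had log2 0.44 in tdT- against tdT+ cells (adjusted p = 0.152).

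At the limit for membership, the lowest nuclear member was Ndufb4b, a near copy of Ndufb4, with 13, 21.8, 0.866 and 27.9 in control, 4.6, 2.76, 5.13 and 5.24 in tdT+ and 4.17, 8.47, 14.8 and 10.5 in tdT- libraries, and a mean of 9.94 over the 12. Just outside was Cox6c2, a copy of Cox6c, with a mean of 7.30. Rows of such copies and the pseudogene rows Atp5pb-ps, Atp5l2-ps and Cox5b-ps can share reads with their parent genes and are uncertain. None of these was called.

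The 2 nuclear promoters shown here belong to members that passed a test and that carry the letters CCGGAAG, the core word of the ETS factor GABP, which is known to act on respiratory genes. They are the 250 bases before the start of the Cox6b1 gene (chr7:30626115-30626364, minus strand) and of the Ndufb6 gene (chr4:40279422-40279671, minus strand), both from RefSeq on GRCm38.p6 and in the direction of transcription. Capitals mark the word, here on the opposite strand.
Cox6b1: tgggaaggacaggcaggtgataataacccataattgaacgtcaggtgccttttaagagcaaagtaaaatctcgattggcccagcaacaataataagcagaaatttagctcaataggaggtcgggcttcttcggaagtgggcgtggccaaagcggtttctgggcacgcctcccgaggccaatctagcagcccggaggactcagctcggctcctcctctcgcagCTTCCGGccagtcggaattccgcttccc
Ndufb6: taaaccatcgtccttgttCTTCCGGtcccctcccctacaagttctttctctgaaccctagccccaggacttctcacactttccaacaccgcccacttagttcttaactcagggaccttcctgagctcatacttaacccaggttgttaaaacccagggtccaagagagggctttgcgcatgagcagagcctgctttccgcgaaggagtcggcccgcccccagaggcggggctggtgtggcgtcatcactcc
Such words were searched on both strands from 250 bases before to 50 bases after each start, in 78 windows of 73 of the 87 nuclear genes that are no pseudogene rows. The GABP word stood in 21.8% of these windows and in 8.86% of all 32851 windows. GCGCATGC, the word of nuclear respiratory factor 1, stood in 14.1% against 2.71%. AAGATGGC, the word of YY1, stood in 14.1% against 2.75%, and CAAGGTCA, the word of the estrogen-related receptors, in 3.85% against 1.56%. The window of Uqcr10 held none of the 4 words, that of Ndufa3 held the YY1 word after its start, and Cox6c had no entry. A match is a description of the sequence only.

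Other genes of the mitochondrion, in lists outside the rule, are to be read against the shares of all genes called. These were 0.955% in tdT+ against control, 6.76% in tdT- against control and 6.32% in tdT- against tdT+. Most lists are short, so 1 call can exceed such a share and says little by itself. Among the 14 other genes of the mitochondrial chromosome, DESeq2 called 1 in tdT+ and 2 in tdT- cells against control, above these shares but on few genes. Of 14 tested genes of the mitochondrial chromosome that are no members, the ribosomal RNA genes were the abundant ones. The large ribosomal RNA mt-Rnr2 fell in tdT+ cells (log2 -0.99, adjusted p = 4.61e-04) and in tdT- cells (log2 -1.21, adjusted p = 4.11e-07) against control, and mt-Rnr1 fell in tdT- cells (log2 -1.15, adjusted p = 1.53e-04). By edgeR 0 of these 14 were called in tdT+ cells (2 at an unadjusted p under 0.05) and 2 in tdT- cells. These rRNAs are transcribed upstream of mt-Nd1 from the same strand as most members.

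The list of complex II (succinate dehydrogenase) and cytochrome c, both encoded in the nucleus alone, also named Cyc1. That gene encodes a complex III subunit, but its symbol fell outside the rule, so it is not in the complex III medians. The list had 6 genes tested. Of these Sdhb, the iron-sulfur subunit, rose in tdT- against tdT+ cells (log2 0.46, adjusted p = 0.0480 by DESeq2, 0.148 by edgeR and 0.108 with the mouse as a replicate block), and the others did not pass in any comparison. Of 41 assembly factors with other symbols DESeq2 and edgeR called 0 in each comparison, with 1, 4 and 2 at an unadjusted p under 0.05 by DESeq2. Of 37 genes for mitochondrial DNA maintenance, transcription and RNA handling, the DNA helicase gene Twnk fell in tdT- cells against control (log2 -2.35, adjusted p = 0.00464 by DESeq2 and 0.0734 by edgeR), and Mterf1b, which is listed near the floor in tdT- libraries, passed as lower in tdT- against tdT+ cells (adjusted p = 0.0308 by DESeq2 and 0.129 by edgeR). Tfam, which packages mitochondrial DNA and starts its transcription, had log2 changes of -0.23 and 0.03 in tdT+ and tdT- cells against control (adjusted p = 1.0 and 0.992), and Polrmt, the mitochondrial RNA polymerase, 0.00 and 0.22 (adjusted p = 1.0 and 0.947).

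Of 78 tested genes of the mitochondrial ribosome, which translates the members of the chromosome, DESeq2 called 0 against control in either group, with 4 in tdT+ and 7 in tdT- cells at an unadjusted p under 0.05, and edgeR called 0. In tdT- against tdT+ cells 3 rose (Mrpl33, Mrps30 and Mrpl40) and Mrpl50 fell, in all no larger a share than the 6.32% of all genes, and edgeR called 0. At an unadjusted p under 0.05 by DESeq2 there were 16, where 15.8% of all genes were. Of the 78, 17 had a negative log2 change, and their median was 0.23, beside 0.18 for the nuclear members. Wholly above the tdT+ libraries lay 8, against 4.56% of all genes, and 2 lay wholly below, against 4.79%. The lean to higher values was thus not particular to the respiratory chain. Of 13 genes of the tricarboxylic acid cycle, Idh3g, a subunit of isocitrate dehydrogenase, fell in tdT+ cells against control (log2 -0.41, adjusted p = 0.0380 by DESeq2 and 0.318 by edgeR) and rose in tdT- against tdT+ cells (log2 0.56, adjusted p = 5.92e-05 by DESeq2 and 0.0182 by edgeR). Of 11 regulators of respiratory genes, Nrf1, nuclear respiratory factor 1, rose in tdT- cells against control (log2 1.06, adjusted p = 0.0246 by DESeq2 and 0.105 by edgeR). Of 17 genes of mitochondrial membranes and import 0 were called in any comparison by DESeq2 or edgeR, with 0, 2 and 3 at an unadjusted p under 0.05 by DESeq2.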

How the data were processed

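Libraries were made with SMART-Seq from sorted cells and amplified by PCR. The authors deposited a table of raw counts per gene name: reads were aligned with STAR 2.7.11a, and per the file headers counted over exons with featureCounts 2.0.6 on GENCODE M33 (GRCm39) with a tdTomato entry, without strand and without reads that map to several places. A column named M1 control bears the library number of M2 control and was assigned by that number; 0 count columns were left over.

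Genes with at least 10 counts in at least 4 libraries were tested, as in the study's methods, with DESeq2 1.42.0 (R 4.3.3, Wald test, all 12 libraries, group as the only term); a call is an adjusted p of at most 0.05. Normalised counts are counts over DESeq2 size factors, and log2 changes are unshrunken. Alternatives were edgeR 4.0.16 quasi-likelihood, TMM factors or library totals, no filter, 8 libraries, apeglm 1.24.0 shrinkage with a log2 change of 1, each library left out, and the replicate label as a block. The tdT+ and tdT- libraries of a label share a mouse, so the pairing comes from the animals. Over well expressed genes their deviations correlated at 0.119, 0.264, 0.138 and 0.106 (F1, F2, M1, M2), and over all tested genes at -0.0046 to 0.0352, and same-label libraries of different animals reached up to 0.184; libraries of different mice in a group are separate animals, and no pair was alike within counting noise. Scripts were tested on simulated data. Sequence windows and promoters come from GRCm38 transcripts and RefSeq, and no coordinates were converted. The text names called members whose mean reached 100 normalised counts (up to 8 per direction and comparison), all mitochondrial members, and a panel of core and variant subunits, of which 1 gene is not reported here. Members and lists were chosen with earlier results of these data known.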

Additional observations from a re-analysis of the deposited data

Results flagged for a closer look

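In 8 of 120 groups of 4 libraries tested among the named genes, 1 library lay far from the other three, with a gap to the nearest that took more of the group's range than Dixon's critical value allows; chance alone gives about 6 such groups, or 1 in 20. Values are normalised counts in libraries F1, F2, M1 and M2, and the ratio is that gap over the range.

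In control cells, Uqcrfs1 read 1603, 1699, 1727 and 2463, with M2 high (ratio 0.856). Cox5a read 1817, 1342, 1842 and 1784 in control cells, with F2 low (ratio 0.883). Cox5b read 2219.6, 1743, 1723 and 1747 in control cells, with F1 high (ratio 0.951). Ndufab1, the acyl carrier protein, read 461, 638, 661 and 649.9 in control cells, with F1 low (ratio 0.886). In BLZ945 tdT+ cells, Cox6b1 read 4261, 4285, 3598 and 4209, with M1 low (ratio 0.889), and Cox6a2 read 63.5, 0, 6.15 and 0, with F1 high (ratio 0.903). In BLZ945 tdT- cells, Ndufv1 read 1156, 1108, 1129 and 1605, with M2 high (ratio 0.904), and Atp5b read 16265, 14346, 14129 and 14334, with F1 high (ratio 0.899). Of these genes only Cox6b1 was called in a comparison.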

How the results depend on the processing

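No called member and no median over the members changed sign under the alternatives. Counts of called members moved as follows, each count with its value under the reported test in brackets. In tdT+ against control cells, mitochondrial calls (3) were 0 by edgeR, 0 at an adjusted p of 0.05 with a shrunken log2 change of at least 1, 6 with the 8 libraries of that comparison alone and 6 with the label as a replicate block, and 0 to 4 with a library left out. Nuclear calls (3) were 5 with edgeR's TMM factors, 8 with library totals, 0 by edgeR, 10 without the low-count filter, 7 with 8 libraries, 6 with the replicate block, 0 at the shrunken log2 threshold, and 1 to 8 with a library left out; the nuclear median moved from -0.25 to -0.082 with apeglm shrinkage. In tdT- against control cells, mitochondrial calls (7) were 2 at the shrunken log2 threshold and 7 with the replicate block, and nuclear calls (3) were 5 with library totals, 0 with the replicate block, 0 at the shrunken threshold, and 1 to 6 with a library left out. In tdT- against tdT+ cells, mitochondrial calls (1) were 0 by edgeR, 0 at the shrunken threshold, 1 with the replicate block, and 1 to 6 with a library left out. Nuclear calls (1) there were 0 with TMM factors, with library totals, by edgeR, with 8 libraries, with the replicate block and at the shrunken threshold, and 0 to 2 with a library left out. The cause of these moves was not tested. Labels of control and BLZ945 mice are shared without shared animals, so the block pairs only tdT+ with tdT- cells. Among single named genes, 1790 of 1887 values kept their side of the threshold, 67 no longer passed and 30 came to pass; 67 values, none of them called, changed sign, 54 of these with a log2 change within 0.1 of 0 under the reported test. Cox6a2 in tdT+ against control went from 0.21 to -3.00 with the replicate block. The all-gene count for tdT+ against control was 131, 9 by edgeR, 389 with the block, 325 with 8 libraries and 256 without the filter. Depth did not limit these genes, save the rows near the floor.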
